A study of Mus musculus with 6 samples.

Results

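Forkhead transcription factors were followed in polyadenylated RNA of primary mouse melanocytes, the pigment-producing cells of the skin. The 34 forkhead genes were taken from a list of 17 subfamilies, FOXA to FOXS, and each was found by its gene ID among the 36528 gene models of the files. Foxk1, Foxk2 and Foxd3 were left off that list. In all, the files hold 10 RefSeq genes named Fox with a letter and number that are not on it. Sums and shares of the family and its subfamilies below therefore cover listed genes only. The series holds 3 libraries whose label reads BAP1 KO, for knockout, and 3 whose label reads WT, for wild type; they are called KO-labelled and WT-labelled here. All were made from skin melanocytes, and no label gives the strain, age, allele, time in culture or any treatment. BAP1 is a nuclear deubiquitinase that removes ubiquitin from histone H2A and is lost in several tumour types. Replicate numbers follow the order of submission and pair nothing. Whether the libraries stem from different cultures or mice is not stated, so a p-value reflects how these libraries vary, which may be technical alone.

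Forkhead factors bind DNA through a shared winged-helix domain, and members of a subfamily are close relatives outside it as well. FOXO factors carry out the transcriptional side of insulin and growth factor signalling, because the kinase AKT phosphorylates them and drives them out of the nucleus. FOXM1 switches on the genes of G2 and mitosis, FOXJ1 those of motile cilia, and FOXP factors act mostly as repressors that pair with each other. FOXA, FOXC, FOXF, FOXL and FOXQ genes pattern tissues and are read in restricted cell types, among them endoderm, mesenchyme and hair follicle. In pigment cells and elsewhere FOXO factors restrain the cell cycle, and FOXM1 is raised in dividing cells.

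The library totals ran from 33987690 to 43773769 uniquely aligned reads. Bap1, the targeted gene, was read at 73.6, 77.3 and 72.5 CPM (reads of a gene relative to the TMM-scaled library total) in KO-labelled libraries and at 55.7, 55.6 and 55.8 CPM in WT-labelled ones, so it did not mark the knockout and every direction below rests on the labels. Of 17121 genes tested, 81.5% were called at an edgeR adjusted p under 0.05, 39.4% higher and 42.1% lower in KO-labelled libraries, with a median log2 difference of -0.03. All 12 melanocyte markers were read in both groups and were higher, summing to 63560 to 64383 CPM against 6716 to 6794 CPM. Of 14 keratinocyte markers 13 were tested and lower, with sums of 437 to 466 CPM against 9158 to 9246 CPM, and 11 of 12 fibroblast markers were lower, with sums of 72.8 to 77.8 CPM against 1016 to 1044 CPM. None of these markers was at 0 in all libraries. In bulk RNA, fewer cells of a type and less RNA per cell cannot be told apart. The part these cell types play in the forkhead results was not tested.

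Of the 34 forkhead genes, 26 had enough reads to be tested, 11 were higher and 13 lower in KO-labelled libraries, and Foxo1 and Foxo3 did not pass the threshold. The groups did not overlap for the same 24 genes, and for 82.7% of all genes tested, so calls and separated groups were the rule across the table. In size, 3 members rose more than 2-fold, Foxo4, Foxd1 and Foxn2, against 13.9% of all genes. A fall of more than 2-fold was called for 11 members, against 22.7% of all genes. Of those 11, however, 6 reached the count filter's limit in all 3 WT libraries but not in all 3 KO-labelled ones, so the filter favoured a fall. Foxa2, Foxb1 and Foxn1 reached it in 0 KO-labelled libraries and so had to be lower. Foxa1 and Foxp2 reached it in 1 and Foxc2 in 2. Among the 20 members past the filter's limit of 0.266 CPM in all 6 libraries, 11 were higher and 7 lower. Of the 14848 genes that met the same condition 81.2% were called, 42.4% higher and 38.8% lower.

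**Figure D1:**
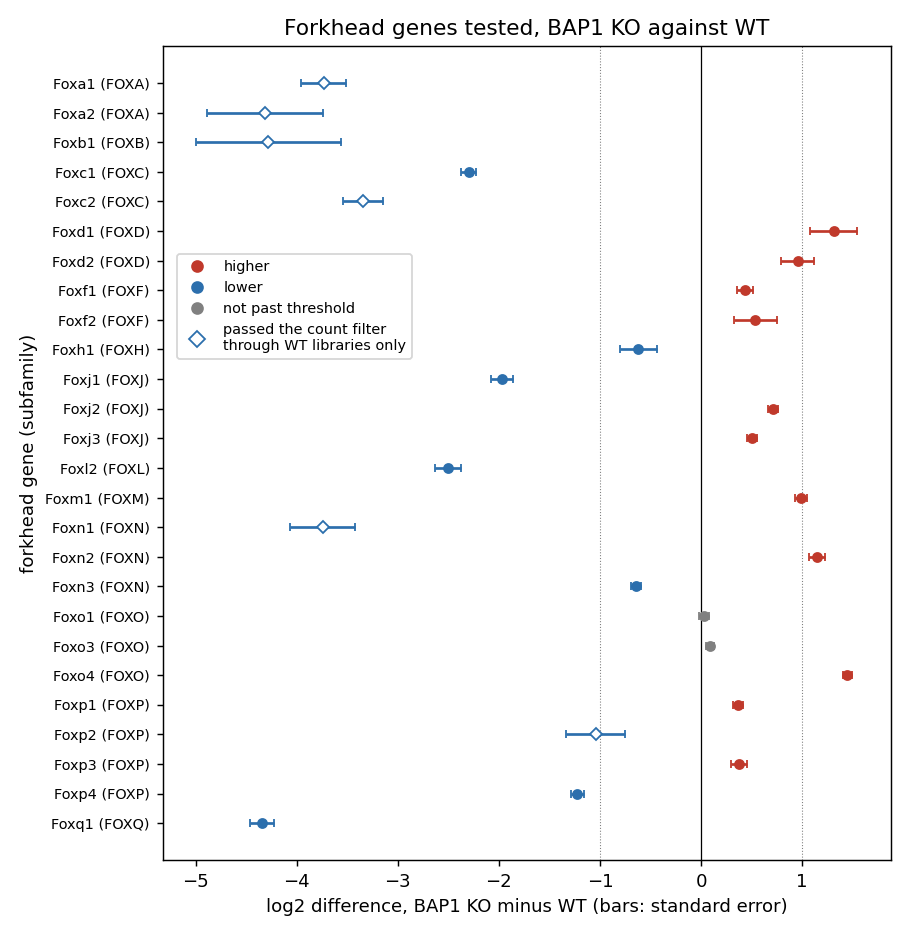
The log2 difference (x axis, BAP1 KO minus WT) of each forkhead gene tested (y axis, with its subfamily), with its standard error as a bar and dotted lines at a 2-fold difference. Foxo4 had the largest rise at 1.45 and Foxq1 the largest fall at -4.34. Open diamonds mark the 6 genes that reached the count filter's limit in all WT libraries but not in all BAP1 KO libraries.

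Measured per length, as the authors' size-factor-adjusted RPKM, the summed level of the 34 genes was 123.0, 124.8 and 120.4 in KO-labelled libraries and 119.2, 119.8 and 125.3 in WT-labelled ones. The groups overlapped in this sum, while its make-up differed. In the WT libraries Foxp4 led at an RPKM of 26.2, followed by Foxo3 at 19.5 and Foxo1 at 11.9. In KO-labelled libraries the order was Foxo3 at 21.2, Foxo4 at 16.9, Foxm1 at 12.8, Foxo1 at 12.4 and Foxp4 at 11.4. Foxj2 at 10.985 and Foxj3 at 10.4 followed Foxp4 closely. Foxo4 stood at 6.08 in WT-labelled libraries, below 8 other members. A mean RPKM of at least 1 was reached by 18 members in WT-labelled libraries and by 13 in KO-labelled libraries.

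**Figure D2:**
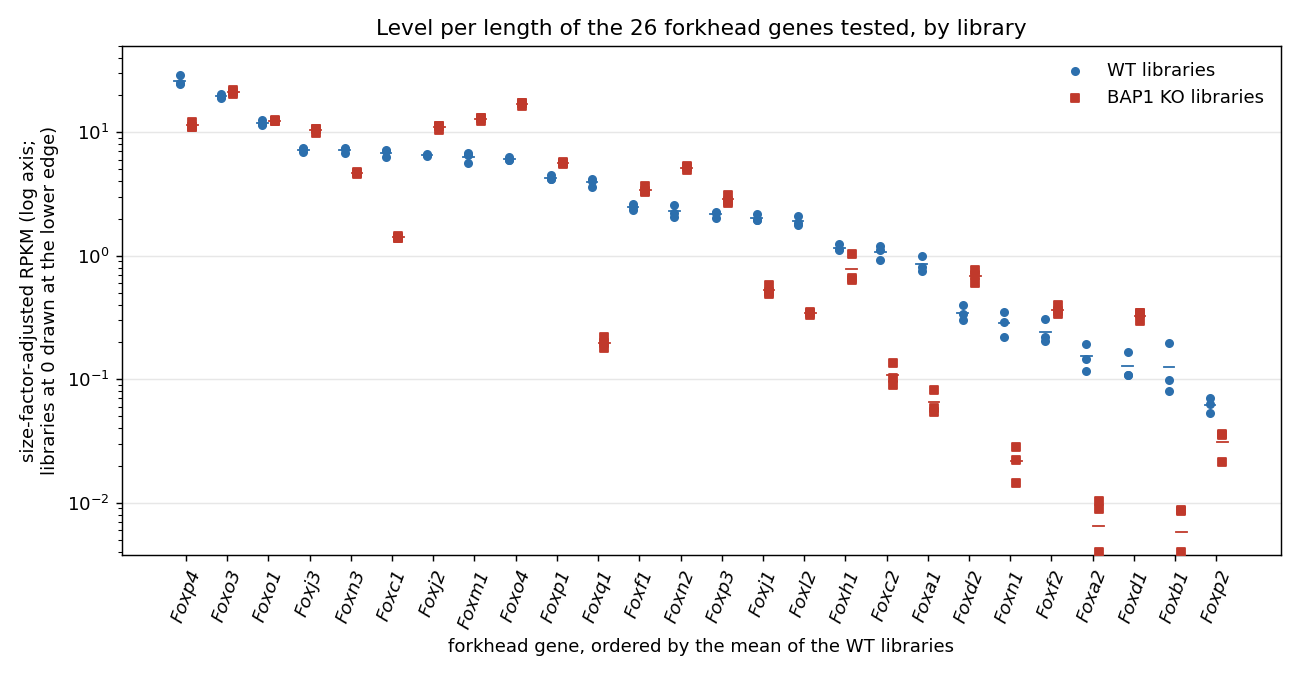
Size-factor-adjusted RPKM (y axis, log scale) of the 26 forkhead genes tested (x axis, ordered by the WT mean) in each of the 3 WT libraries (circles) and 3 BAP1 KO libraries (squares), with group means as short lines. The abundant genes on the left differ in both directions, with means from WT to BAP1 KO of 26.2 to 11.4 for Foxp4 and 6.08 to 16.9 for Foxo4. Foxc1, Foxq1, Foxj1, Foxl2, Foxc2, Foxa1, Foxn1, Foxa2 and Foxb1 sit far lower in the BAP1 KO libraries.

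Promoter sequence was available in RefSeq (GRCm38.p6) for 21 of the 34 members, as 26 windows of 300 bases from 250 before to 50 after a gene start. CpG-rich promoters are the usual landing place of the Polycomb complexes whose histone mark BAP1 removes, so the CpG content of members that fell and rose is shown. The 250 bases before the start are printed 5′ to 3′ on the gene's strand for Foxc1 (chr13:31806396-31806645, plus strand), which fell, and for Foxj2 (chr6:122819934-122820183, plus strand), which rose; capitals mark each CpG.
Foxc1: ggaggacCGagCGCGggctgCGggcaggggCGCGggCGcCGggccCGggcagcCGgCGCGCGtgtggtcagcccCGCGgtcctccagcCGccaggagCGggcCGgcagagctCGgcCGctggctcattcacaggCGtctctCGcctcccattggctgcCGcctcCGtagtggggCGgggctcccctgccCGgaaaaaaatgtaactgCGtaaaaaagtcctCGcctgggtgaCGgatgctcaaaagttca
Foxj2: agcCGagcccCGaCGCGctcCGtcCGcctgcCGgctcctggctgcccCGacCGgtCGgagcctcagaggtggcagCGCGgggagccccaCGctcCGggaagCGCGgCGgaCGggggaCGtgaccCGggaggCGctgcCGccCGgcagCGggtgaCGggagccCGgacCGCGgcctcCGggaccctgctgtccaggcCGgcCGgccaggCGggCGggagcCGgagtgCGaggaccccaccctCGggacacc
These stretches hold 29 and 36 CpGs. Over the 300-base windows the counts were 32 in Foxc1, 33 in Foxp4, 27 in Foxl2 and 26 in Foxa1, which were lower, and 37 in Foxj2, 42 in Foxj3, 27 in Foxf2 and 26 in Foxd2, which were higher. The median was 7 over all 32851 RefSeq windows, 20 for genes called higher and 17 for genes called lower. CpG-rich windows were thus found on members of both directions. So were CpG-poor ones, with 8 in Foxn1 and 6 in Foxn3, which fell. The windows of Foxp3 held 6 and 8 and those of Foxp1 5, 13 and 44, and both genes rose. The windows of Foxa1, Foxn3 and Foxp1, and the Foxp3 window with 8, lie inside the genes' RefSeq spans, at internal starts. Which start was used in these cells was not analysed.

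A window was also searched on both strands for TGTTTAC, the core of many forkhead binding sites. It was found in 3.65% of all windows and in 1 of the 26 member windows, that of Foxa1. The 250 bases before an annotated Foxa1 start (chr12:57546112-57546361, minus strand) are printed with the match, read as GTAAACA from the other strand, in capitals. They lie inside the RefSeq span of Foxa1 (chromosome 12, 57540628 to 57548029), so this start is an internal one.
Foxa1: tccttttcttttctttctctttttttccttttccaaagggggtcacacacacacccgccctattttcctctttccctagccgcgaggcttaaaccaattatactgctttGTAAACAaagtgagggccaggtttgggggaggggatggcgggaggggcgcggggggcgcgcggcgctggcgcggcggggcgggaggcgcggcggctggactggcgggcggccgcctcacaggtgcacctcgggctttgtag
The match begins 141 bases before this internal start. It is a description of these letters and not a site.

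Of the 3 FOXO factors listed, Foxo4 alone rose past the threshold. Foxo4 (X chromosome, 101254261 to 101260873 on GRCm38), an AKT-regulated activator like its relatives, was read at 91.8, 92.2 and 87.4 CPM in KO-labelled libraries and at 32.2, 33.2 and 34.1 CPM in WT-labelled ones. Every BAP1 KO library lay far above every WT library. The difference was 2.73-fold (log2 1.45, SE 0.045, edgeR adjusted p = 1.87e-10), and it was also called against a 2-fold null by edgeR's glmTreat, as were 30.6% of all genes. Foxo3 (chromosome 10, 42181845 to 42276695), the most abundant of the 3, was read at 153, 160 and 148 CPM against 142, 143 and 148 CPM. These groups overlap, and the log2 difference of 0.09 (SE 0.042, edgeR adjusted p = 0.0754) did not pass; it passed without BAP1 KO replicate 3 (0.13, adjusted p = 0.0272), without WT replicate 3 (0.14, adjusted p = 0.00226) and with no count filter (0.13, adjusted p = 0.0219). Foxo1 (chromosome 3, 52268337 to 52350109) was read at 73.4, 72.3 and 72.7 CPM against 68.7, 76.5 and 68.7 CPM, a log2 difference of 0.03 (SE 0.050, edgeR adjusted p = 0.595). WT replicate 2 was the highest of all 6 for Foxo1, and the sign turned under library totals (-0.03) and with at least 5 CPM required (-0.05). Opposite-strand exons of the gene model Gm20402 overlap 7.78% of Foxo1.

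Per length, the summed FOXO level went from an RPKM of 37.4 ± 0.713 to 50.5 ± 1.34 (SD, n = 3 each). Foxo4 made up 16.3% ± 0.303 of that sum in WT-labelled libraries and 33.6% ± 0.286 in KO-labelled libraries. Foxo3 went from 52.1% to 41.9% and Foxo1 from 31.7% to 24.5%. Since Foxo4 lies on the X chromosome, the X inactivation transcript Xist is given beside it: 404 ± 5.02 CPM in KO-labelled libraries and 280 ± 53.2 CPM in WT-labelled libraries. Transcripts of 4 genes of the Y chromosome, Ddx3y, Kdm5d, Eif2s3y and Uty, were read in both groups as well, 3 of them higher in KO-labelled libraries. Their part in the Foxo4 difference was not tested.

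The genes that control FOXO factors went both ways. Of 26 listed regulators tested, 16 were higher and 7 lower, 3 missed the threshold, and the list had a median log2 difference of 0.43 against -0.03 for all genes. Calls were made for 81.5% of all genes tested, so the number called in this list is near the background. Against a 2-fold null (glmTreat), 3 regulators were higher and 3 lower. Akt1 and Akt2, genes of kinases that inactivate FOXO factors, were higher, Akt1 from 331 to 440 CPM and Akt2 from 37.6 to 56.8 CPM. Inpp4b, the gene of a phosphatase that opposes them, rose from 5.59 ± 0.803 to 36.6 ± 0.567 CPM (log2 2.72, SE 0.086). Sgk1, a kinase that phosphorylates FOXO3, fell 9.49-fold, from 190 ± 8.09 to 20.02 ± 1.16 CPM (edgeR adjusted p = 1.99e-12), while its relative Sgk3 rose from 14.7 to 27.3 CPM. The catalytic subunit Pik3cb fell 3.59-fold and the ubiquitin ligase Mdm2 3.23-fold, and Pik3cd rose 2.36-fold. The deacetylase gene Sirt1 rose from 12.8 to 27.3 CPM. Cdk2 rose 6.81-fold, from 132 ± 2.79 to 899 ± 7.83 CPM; its span (chromosome 10, 128697938 to 128705051) lies wholly within that of the pigment gene Pmel (128695888 to 128720238) in RefSeq, which rose 6.21-fold to 8132 CPM. In GENCODE M21 the Pmel exons, on the opposite strand, cover 0.547% of those of Cdk2. The reads do not tell the strand, so the Cdk2 value is uncertain. Akt1, Akt2, Sgk3 and Sirt1 were chosen after their values were seen.

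FOXO target genes moved both ways. Of 28 listed, 25 were tested, 13 of them higher and 8 lower, while 4 missed the threshold, with a median log2 difference of 0.21. The number called is again near the 81.5% of all genes tested. Cdkn1b, the cell cycle inhibitor p27, rose 3.99-fold, from 33.2 ± 4.57 to 132 ± 4.28 CPM. The ubiquitin ligase Trim63 rose 3.002-fold and the pocket protein gene Rbl2 2.88-fold; exons of other gene models overlap 20.97% of Rbl2. Fbxo32, another ubiquitin ligase of muscle wasting, fell 2.58-fold from 79.7 ± 1.03 to 30.9 ± 1.21 CPM. The cyclin gene Ccng2 fell 1.80-fold and the death gene Bcl2l11 (BIM) 1.75-fold. Autophagy genes split, with Gabarapl1 at 327 against 116 CPM and Map1lc3b at 170 against 97.2 CPM, both higher, and Atg12 at 56.9 against 97.5 CPM, lower. The stress genes Cat and Txnip were higher at log2 0.89 and 1.29, and Gadd45a and Irs2 lower at -0.71 and -0.69. These 7 genes were chosen after their values were seen. Tnfsf10, G6pc and Pck1 had at most 2 reads in either group and were not tested.

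Foxm1 was 1.99-fold higher in KO-labelled libraries, and nearly all of its listed mitotic targets were higher with it. Foxm1 (chromosome 6, 128362994 to 128375886) was read at 56.9, 60.7 and 60.1 CPM against 30.6, 27.2 and 31.6 CPM, with no overlap (log2 0.99, SE 0.060, edgeR adjusted p = 5.73e-08). Of 24 target genes of G2 and mitosis, 22 were higher, against 39.4% of all genes tested. Cks1b was lower. Cks2 did not pass, although its groups did not overlap and its log2 difference of -0.51 was the lowest of the list. The list had a median log2 difference of 0.83. Cenpf, a kinetochore protein gene, rose 3.44-fold, from 25.96 ± 1.40 to 89.2 ± 2.34 CPM. The cyclin gene Ccnb2 rose 2.71-fold and the centrosome kinase gene Nek2 2.44-fold. Cks1b fell 1.27-fold, from 14.1 ± 0.493 to 11.1 ± 0.955 CPM. Mki67, a marker of dividing cells, rose 2.89-fold in the same libraries, and the part of cell division in these values was not tested.

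The list of genes that act with FOXM1 at its targets holds subunits of the MuvB complex, the factor B-Myb, kinases and a cyclin. Of these 10 genes, 8 were higher and 2 lower (median 0.69), and both lower genes were MuvB subunits. Of all genes tested, 39.4% were higher and 42.1% lower. The MuvB subunits split. Lin52 rose 2.56-fold and Lin54 2.30-fold, whereas Lin9 fell from 13.6 ± 0.926 to 9.45 ± 0.378 CPM and Lin37 by 0.18 on the log2 scale (edgeR adjusted p = 0.0255). The count of lower genes went from 2 to 1 when KO replicate 1, 2 or 3 or WT replicate 1 or 3 was left out. The mitotic kinase Plk1 rose 2.04-fold; other gene models, mostly a pseudogene, hold 10.4% of its 50-base stretches. Rhno1, whose annotated span ends next to that of Foxm1 and which works in the replication checkpoint, fell by 0.34 on the log2 scale, opposite to Foxm1.

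The FOXP genes changed in opposite directions. Foxp4 (chromosome 17, 47867133 to 47924632), a repressor of lung and neural development, was read at 49.2, 54.5 and 49.0 CPM against 115, 113 and 130 CPM. It fell 2.34-fold (log2 -1.23, SE 0.064, edgeR adjusted p = 1.57e-08). Foxp1 (chromosome 6, 98925342 to 99522746), its dimer partner, was read at 72.3, 70.3 and 70.8 CPM against 53.5, 58.9 and 53.6 CPM, a rise of 1.29-fold (log2 0.36, SE 0.048, edgeR adjusted p = 4.12e-05). Foxp2, the speech and motor circuit gene, was near the detection limit, at 27 reads in all BAP1 KO libraries and 55 in all WT libraries (log2 -1.04, SE 0.29, edgeR adjusted p = 0.00700; DESeq2 adjusted p = 0.0607). It reached the count filter's limit in 1 KO-labelled library, so the filter favoured a fall. Per length, the sum of the subfamily went from an RPKM of 32.7 ± 2.33 to 19.96 ± 0.842. Foxp4 made up 80.0% ± 1.42 of it in WT-labelled libraries and 57.2% ± 1.02 in KO-labelled libraries, and Foxp1 13.2% ± 1.29 and 28.3% ± 1.52.

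Foxp3, the master regulator of regulatory T cells, was listed at 11.1, 13.0 and 11.6 CPM against 9.52, 8.70 and 9.39 CPM (log2 0.38, SE 0.080, edgeR adjusted p = 0.00129). Of the T cell genes, Cd3d and Cd3g had 0 reads in all 6 libraries, Cd3e had 0 and 2, and Cd4 had 1 and 6. Exons of other genes cover 31.5% of the Foxp3 model, and its span is shared with Flicr on the same strand and with Ccdc22. Ccdc22, a widely expressed trafficking gene, was read at 31.1 CPM in KO-labelled libraries and 24.7 CPM in WT-labelled libraries (log2 0.33). Flicr, whose exons cover 18.6% of the Foxp3 model, was read at 1.48 CPM in KO-labelled libraries and 0.938 CPM in WT-labelled libraries (log2 0.67). Bases shared on the same strand, and libraries that do not mark strand, leave the Foxp3 value uncertain. Which exons carry the Foxp3 reads was not analysed here. Of 12 T cell genes in the files, 4 were tested: Cd28 fell 17.6-fold from 11.8 ± 2.42 CPM, the Helios gene Ikzf2 fell 4.41-fold from 27.6 ± 4.18 CPM, and Lck and Tnfrsf18 did not pass.

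Foxn2 and Foxn3, widely expressed relatives, moved in opposite directions. Foxn2 (chromosome 17, 88440704 to 88490533) was read at 36.1, 35.7 and 33.7 CPM against 15.5, 18.1 and 14.2 CPM, a rise of 2.21-fold (log2 1.15, SE 0.081, edgeR adjusted p = 2.07e-07). Foxn3 (chromosome 12, 99190081 to 99563667), a repressor tied to the DNA damage checkpoint, was read at 44.9, 43.3 and 44.4 CPM against 70.02, 72.7 and 64.8 CPM, a fall of 1.56-fold (log2 -0.65, SE 0.051, edgeR adjusted p = 5.19e-07). Neither pair of groups overlaps. The sum of the subfamily per length was nearly level, at an RPKM of 9.86 ± 0.238 in KO-labelled libraries and 9.74 ± 0.478 in WT-labelled libraries. Within it the share of Foxn2 went from 23.4% ± 1.47 to 52.5% ± 1.12 and that of Foxn3 from 73.4% ± 0.810 to 47.3% ± 1.05. Foxn1, the factor of thymic and hair keratinocytes that is mutated in nude mice, had 12 reads in the BAP1 KO libraries and 163 in the WT libraries (log2 -3.74, SE 0.32). It reached the count filter's limit in 0 KO-labelled libraries and so had to be lower. Foxn4, a retinal factor, had 0 reads against 10, at least 3.39-fold lower when the 0 is set to 3 reads for the whole group, counting error alone considered.

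**Figure D3:**
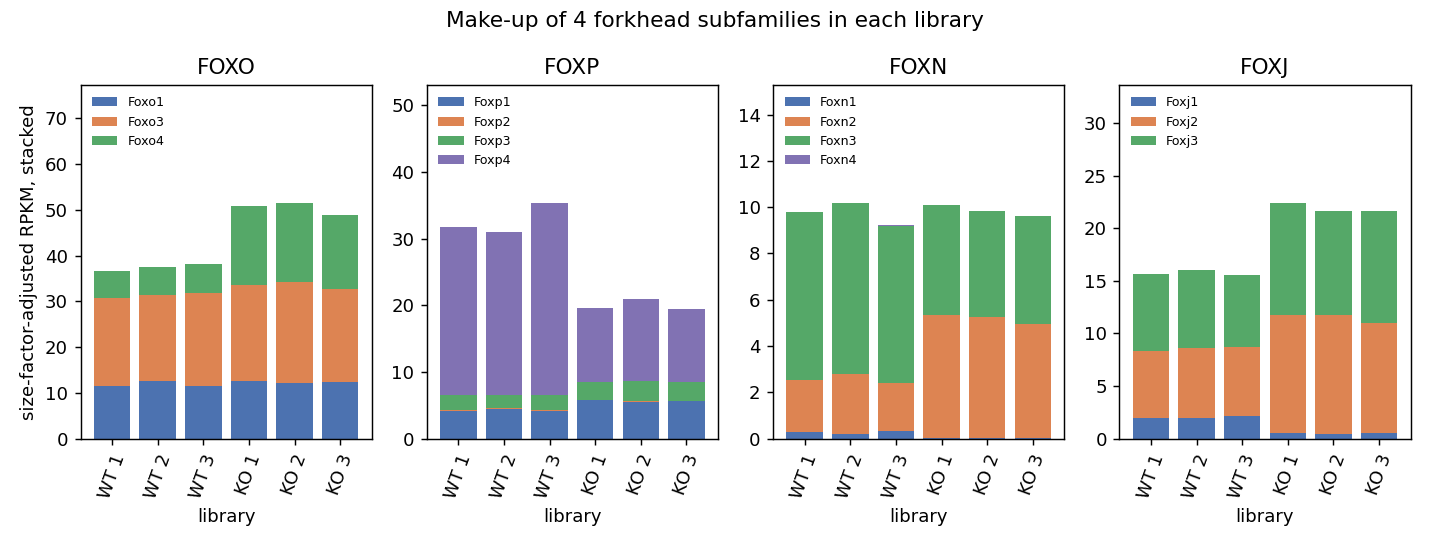
Stacked bars of size-factor-adjusted RPKM (y axis, from 0, each panel on its own scale) for the genes of the FOXO, FOXP, FOXN and FOXJ subfamilies in each of the 6 libraries (x axis). Foxo4 widens in the BAP1 KO libraries and Foxp4 narrows. Foxn2 widens and Foxn3 narrows while the FOXN bars keep a like height.

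The FOXJ genes split between the cilium factor and its relatives. Foxj1 (chromosome 11, 116330704 to 116335499), the switch for motile cilia, was read at 1.48, 1.45 and 1.73 CPM against 5.81, 6.01 and 6.43 CPM, a fall of 3.92-fold (log2 -1.97, SE 0.11, edgeR adjusted p = 2.77e-08). Foxj2 and Foxj3, which are read in most tissues, rose 1.64-fold and 1.42-fold. Foxj2 (chromosome 6, 122820184 to 122845366) stood at 58.4 ± 2.34 CPM against 35.7 ± 1.09 CPM, and Foxj3 (chromosome 4, 119539661 to 119629119) at 59.9 ± 2.35 CPM against 42.2 ± 2.24 CPM. Foxj1 made up 12.8% ± 0.895 of the subfamily's RPKM in WT-labelled libraries and 2.41% ± 0.255 in KO-labelled libraries. The motile cilium genes went both ways. Of 28 in the files 16 were tested. Of these 6 rose and 5 fell, against 39.4% and 42.1% of all genes tested, while 5 missed the threshold (median -0.09). Among the falls, 2 were larger than 2-fold, both in genes under 2 CPM named after their values were seen. The dynein arm gene Dnah5 had 3 reads against 91 (log2 -4.78, SE 0.48) and passed the count filter through the WT-labelled libraries alone, so it had to be lower. The radial spoke gene Rsph1 had 59 reads against 132, a fall of 2.27-fold (log2 -1.18, SE 0.19). The ciliary regulators Rfx3 and Rfx2 rose 2.59-fold and 2.13-fold, and another radial spoke gene, Rsph9, rose 1.77-fold. Spag17, with exons overlapped over 15.7% by other genes, fell 1.38-fold and the tubulin gene Tubb4b 1.31-fold, though 41.3% of the 50-base sequences of Tubb4b are shared with other genes. Mcidas and Gmnc, which start the multiciliated program, had at most 4 reads in either group, and Tekt4 had 0 in all libraries.

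Foxc1 and Foxc2, factors of mesenchyme, eye and vessel development, both fell. Foxc1 (chromosome 13, 31806646 to 31810635) was read at 6.15, 5.91 and 5.94 CPM against 27.0, 31.6 and 29.9 CPM, with no overlap. It was 4.92-fold lower (log2 -2.30, SE 0.076, edgeR adjusted p = 3.25e-10). Foxc2 (chromosome 8, 121116171 to 121118895) had 36 reads in the BAP1 KO libraries and 363 in the WT libraries (log2 -3.34, SE 0.20, edgeR adjusted p = 4.57e-08). It reached the count filter's limit in 2 KO-labelled libraries, so the filter favoured a fall. Foxq1 (chromosome 13, 31558170 to 31560976), needed for the hair medulla and raised in several carcinomas, was read at 0.647, 0.586 and 0.530 CPM against 12.1, 11.1 and 12.6 CPM. At 20.2-fold it was the largest fall among the members read past the filter in all libraries (log2 -4.34, SE 0.12, edgeR adjusted p = 6.87e-11). The GENCODE M21 model A530084C06Rik lies antisense over 66.1% of the Foxq1 exons, and without strand the reads of both cannot be told apart. Keratinocyte markers (median log2 difference -4.19) and fibroblast markers (median -3.12) were lower in these libraries too, while Foxf1, Foxf2 and Foxd1, given below, were higher. The part of these cell types in any of these values was not tested.

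Foxf1 and Foxf2, Hedgehog-responsive factors of gut and lung mesenchyme, went the other way from the FOXC genes beside them. Foxf1 (chromosome 8, 121084386 to 121088154) was read at 8.57, 9.40 and 8.42 CPM against 6.82, 6.30 and 6.40 CPM, a rise of 1.36-fold (log2 0.44, SE 0.079, edgeR adjusted p = 3.98e-04). Foxf2 (chromosome 13, 31625816 to 31631406) was read at 0.997, 0.844 and 0.892 CPM against 0.518, 0.798 and 0.558 CPM (log2 0.54, SE 0.22, edgeR adjusted p = 0.0396). The nearest values of the groups lie close together, 0.844 and 0.798 CPM. The Foxf2 call was lost without any one library except WT replicate 2 (adjusted p up to 0.108), under library totals (0.0612) and with DESeq2 (0.137).

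The 2 clusters each hold a FOXF and a FOXC gene. On chromosome 13, Foxf2 starts 67.6 kb and Foxc1 248.5 kb from the left end of Foxq1; on chromosome 8, Foxc2 starts 31.8 kb from the left end of Foxf1 and Foxl1 follows it. In each the FOXF gene was higher and the FOXC gene lower, though the Foxf2 call was kept in only 6 of 15 alternatives. Every other gene tested within 250 kb was lower: Gmds, an enzyme of fucose synthesis, from 16.2 to 4.98 CPM (log2 -1.70, SE 0.091), Mthfsd from 41.2 to 25.3 CPM (log2 -0.70, SE 0.057), and Fendrr, the noncoding transcript divergent from Foxf1, from 0.670 to 0.416 CPM (log2 -0.70, SE 0.28, edgeR adjusted p = 0.0386). The groups overlapped for Fendrr. Foxl1, a factor of gut mesenchyme, had 8 and 34 reads and was not tested.

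**Figure D4:**
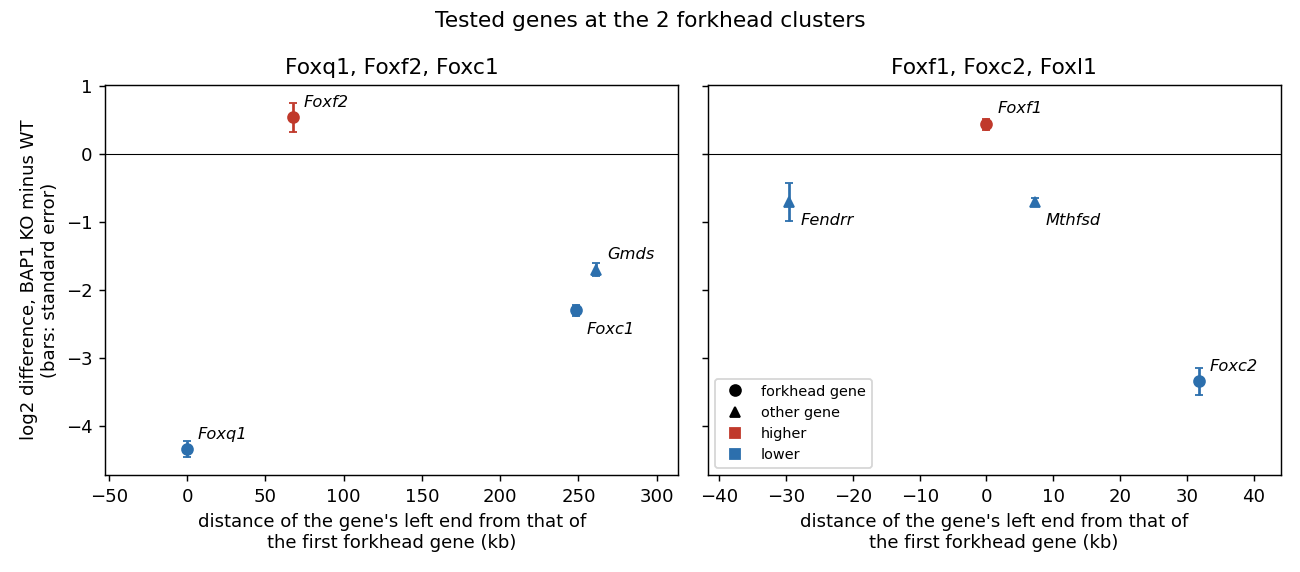
The log2 difference (y axis, BAP1 KO minus WT, with standard error) of each gene tested at the 2 forkhead clusters against the distance of its left end from that of the first forkhead gene (x axis, kb). Foxf2 (0.54) and Foxf1 (0.44) lie above 0, and Foxq1, Foxc1, Foxc2 and the 3 other genes (triangles) lie below.

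Hedgehog pathway genes, which act upstream of FOXF and FOXL1 genes in mesenchyme, went both ways. Of 13 tested, 6 were higher and 5 lower (median 0.06), against 39.4% and 42.1% of all genes tested. A rise of more than 2-fold was called for 6, against 13.9% of all genes. A fall of more than 2-fold was called for 2, against 22.7% of all genes. The lowest log2 difference of the list was -3.22. The pathway's transcription factor Gli1 rose from 0.290 ± 0.0675 to 13.5 ± 0.0710 CPM, 45.9-fold, and the co-receptor genes Gas1 and Boc 5.36-fold and 4.14-fold; a gene model on the opposite strand overlaps 19.9% of Gas1. The ligand gene Dhh fell from 5.68 to 1.21 CPM, with 25.2% of its exons overlapped by an opposite-strand model, and Disp1 and Gli3 fell by 0.41 and 0.20 on the log2 scale. Shh and Ihh had at most 5 reads in either group.

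The FOXD genes tested were higher in KO-labelled libraries, at low levels. Foxd1 (chromosome 13, 98354245 to 98356705), a marker of kidney stroma and of embryonic dermal precursors, was read at 0.890, 0.891 and 0.781 CPM against 0.288, 0.293 and 0.437 CPM, a rise of 2.48-fold (log2 1.31, SE 0.23, edgeR adjusted p = 3.74e-04). Foxd2 (chromosome 4, 114906280 to 114908898) was read at 1.94, 1.67 and 2.12 CPM against 1.12, 0.878 and 0.946 CPM, 1.94-fold higher (log2 0.96, SE 0.17). Its divergent noncoding neighbour Foxd2os rose as well, from 1.08 to 1.80 CPM (log2 0.73, SE 0.15). Foxl2 (chromosome 9, 98955607 to 98958126), the factor that keeps ovarian granulosa cells in their fate, was read at 0.890, 0.938 and 0.920 CPM against 4.83, 5.11 and 5.67 CPM. It fell 5.67-fold (log2 -2.50, SE 0.13, edgeR adjusted p = 1.11e-08), and its neighbour Foxl2os fell 5.53-fold, from 6.29 to 1.14 CPM. Both neighbours were chosen after their values were seen, and annotated exons shared between Foxl2 and Foxl2os make up 0.369% of Foxl2.

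Foxa1, the pioneer factor of endoderm and mammary epithelium, was read in the WT libraries at 2.96, 3.72 and 2.76 CPM and in the BAP1 KO libraries at 0.297, 0.211 and 0.195 CPM. The groups lie far apart (13.3-fold, log2 -3.73, SE 0.22, edgeR adjusted p = 5.31e-08). Its relative Foxa2 had 2 reads against 46, a ratio of 23.4 with a 95% counting interval of 6.12 to 199, and Foxb1, a factor of the embryonic midbrain and hypothalamus, 2 against 45, a ratio of 22.9 with an interval of 5.98 to 195. An opposite-strand model, B230323A14Rik, overlaps 14.01% of Foxb1. These intervals cover counting error alone. The count filter's limit was reached in 1 KO-labelled library for Foxa1 and in 0 for Foxa2 and Foxb1. The filter thus favoured a fall. Foxh1, the partner of SMAD2 and SMAD3 in Nodal signalling, was read at 1.43, 1.501 and 2.31 CPM against 2.53, 2.90 and 2.57 CPM (log2 -0.62, SE 0.18, edgeR adjusted p = 0.00816). BAP1 KO replicate 3 lies apart from the other 2 and nearer to the WT libraries. The RefSeq spans of Foxh1 and Kifc2 share 368 bases, and Kifc2 was read at 22.3 CPM in WT-labelled and 14.3 CPM in KO-labelled libraries (log2 -0.64). In GENCODE M21 exons of other genes overlap 0% of those of Foxh1. Whether reads of Kifc2 entered the Foxh1 count was not analysed, so the Foxh1 value stays uncertain. Of 9 Nodal and activin genes tested, 3 were higher and 3 lower (median -0.02), against 39.4% and 42.1% of all genes tested. Smad3 fell 4.63-fold, from 339 ± 3.86 to 73.3 ± 1.56 CPM, and the receptor gene Acvr1b 2.04-fold. Acvr2b rose 2.21-fold and Smad4 1.47-fold. Gdf1 rose 7.80-fold but lies wholly within the Cers1 model, so the reads of both cannot be told apart. Nodal itself had 1 and 7 reads.

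The remaining members were at or near 0. Foxi1, the ionocyte factor, had 0 reads in all 6 libraries. Foxd4 had 0 and 1 reads, Foxr1 0 and 2, Foxa3 1 and 4, Foxs1 1 and 7, and the thyroid factor Foxe1 5 and 12 in the BAP1 KO and WT libraries. The ratio of WT to BAP1 KO was 4.07 for Foxa3 (95% counting interval 0.403 to 200) and 7.12 for Foxs1 (0.915 to 321), so no difference was detectable at this depth. Listed targets of FOXI1 and of FOXN1 were low too: 4 of 10 and 4 of 12 were tested. Against 42.1% of all genes tested, all 8 of these were lower. Of these, 5 did not reach the count filter's limit in all KO-labelled libraries, so the filter favoured a fall. They were Cftr and Car2 of the FOXI1 list, and Dsg4, Dlx3 and Hoxc13 of the FOXN1 list. Of the others, Car12, a carbonic anhydrase, fell from 4.96 to 0.464 CPM and the hair follicle factor Msx2 from 19.1 ± 0.531 to 0.930 ± 0.131 CPM. Hair keratin genes of the FOXN1 list had at most 28 reads in a group.

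**Figure D5:**
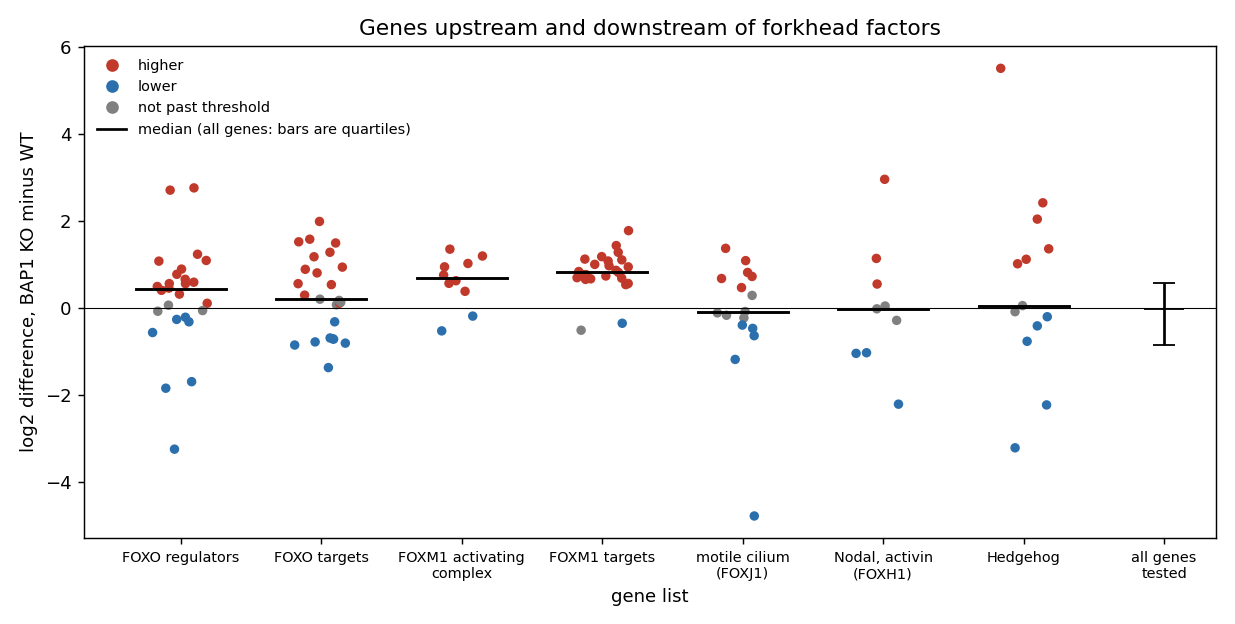
The log2 difference (y axis, BAP1 KO minus WT) of each tested gene of 7 lists (x axis), with the list's median as a black line and, at the right, the median and quartiles of all genes tested. FOXM1 targets have a median of 0.83 and run from -0.51 to 1.78, with 22 of 24 higher, while the FOXO, cilium, Nodal and Hedgehog lists spread to both sides of 0.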

How the data were processed

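RNA was measured in 6 libraries. Per the labels' protocols, column-purified, DNase-treated total RNA was made into TruSeq RNA v2 libraries and read on a HiSeq4000 from one end, 50 bases long. This kit keeps no strand. GSNAP and GRCm38 are named per the submitters' processing notes, while versions, the read counter and the gene models' origin were not given in the sources used here. The deposited count is, per the file headers, the number of reads aligned uniquely to a gene model. The deposited RPKM was adjusted by a size factor by the authors, per the file headers. RPKM served to compare levels between genes and the counts served every test.

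Gene IDs were matched to RefSeq GRCm38.p6 (31049 of 36528). Genes passing edgeR's filterByExpr (minimum count 10, total 15) were scaled by TMM (0.975 to 1.03) and tested with edgeR 4.0.16 (glmQLFit, glmQLFTest) in R 4.3.3, with no covariate. Calls used a Benjamini-Hochberg adjusted p under 0.05 over all genes tested. SE is the absolute log2 difference over the square root of F. Exon overlap and shared 50-base sequences came from GENCODE M21. Fits were tried on simulated counts. The members, the lists and the rule for names (all members, Bap1, tested neighbours, and per list up to 3 called genes each way with at least 2 CPM) were chosen with earlier results of these data known. Alternatives were other scalings and filters, DESeq2 1.42.0, limma-voom (limma 3.58.1), robust edgeR, an adjusted p under 0.01, glmTreat and leaving out each library. Protein sequences were not used here.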

Additional observations from a re-analysis of the deposited data

How the results depend on the processing

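Over the alternatives, 379 results for single forkhead genes kept their direction and side of the threshold, 21 lost the call, 3 gained it and 2 changed sign. Both sign changes were Foxo1, at -0.0312 under library totals and -0.0483 with at least 5 CPM in 3 libraries. Leaving out 1 library gave 10 to 11 higher and 13 to 14 lower forkhead genes. With at least 5 CPM, fewer genes were tested and 5 forkhead genes were lower. Against a 2-fold null (glmTreat), 2 forkhead genes were higher and 10 lower, and 1818 genes were higher and 3417 lower in all, a share of 34.7% higher among calls against 48.3%. By the same test FOXO regulators gave 3 higher and 3 lower and FOXO targets 6 and 1. The FOXM1 complex and kinase list gave 2 and 0, FOXM1 targets 6 and 0, and cilium genes 1 and 1. Nodal genes gave 2 higher and 1 lower, and Hedgehog genes 4 higher and 2 lower. The FOXM1 complex and kinase list had 1 lower gene with no count filter, with DESeq2 and at an adjusted p under 0.01. It had 1 to 2 when 1 library was left out. Cilium genes had 10 lower with no count filter, and 3 higher and 1 lower with at least 5 CPM. That filter left 0 lower FOXI1 targets and 1 lower FOXN1 target. Other than the fewer genes tested and the wider null, causes were not tested. No paired analysis was possible because the labels give no replicate numbers. Low members such as Foxa2, Foxb1 and Foxn1 are limited by depth, and their intervals cover counting error alone.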
